A study of Homo sapiens with 12 samples.

Results

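Integrins and laminins were examined as a group of 37 genes, taken from the 19907 gene symbols in the files by name alone: every integrin α gene (18), every integrin β gene from ITGB1 to ITGB8 (8), and laminin α (5), β (4) and γ (2) chain genes. Fold changes were given for the 29 of them with a mean normalized count of at least 20 over the 12 libraries. These were 12 integrin α genes, all 8 integrin β genes, all 5 laminin α genes, 3 laminin β genes and 1 laminin γ gene. Integrins are receptors at the cell surface made of an α and a β chain. They bind the extracellular matrix or other cells outside and link to the actin cytoskeleton through talins and kindlins inside. Laminins are secreted trimers of an α, a β and a γ chain, form the sheet of the basement membrane, and are bound by some integrins, among them the receptors that contain ITGA3, ITGA6, ITGA7 and ITGB4. In breast epithelium these receptors hold cells to the basement membrane, and TGFβ1 is known both to change integrin and matrix genes and to be released from its latent form by integrins with the ITGAV chain.

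The libraries came from MDA-MB-231, an established human TNBC line with a mesenchymal-like character that expresses the glucocorticoid receptor (GR). The wt-GR cells were a non-targeted clone from the CRISPR/Cas9 population, and the S134A-GR cells were clone #1, in which Ser134 of GR is alanine on both alleles. Every culture was starved of serum for 18 h in IMEM with 1% DCC and then kept for 6 h with vehicle or with TGFβ1 at 10 ng/mL, which makes 4 groups of 3 libraries. Each line was thus 1 clone, so the S134A change and other differences between the clones cannot be told apart. No source says whether the 3 libraries of a group came from separate cultures, so p-values measure the spread between these libraries, which may be technical. In such bulk RNA, fewer cells with a transcript and less of it per cell cannot be told apart either.

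The deposited values are normalized counts, and they were whole multiples of a common step in 100% of cases, which gave back 56362036 to 129832227 reads per library. The markers listed as detected in the line fitted the label. VIM, CD44, CAV1, MSN, EGFR and NR3C1, the GR gene, were all at or above 8336 normalized counts in every library. Of the genes listed as low or absent in the line, ESR1 stayed at or below 7.32 and CDH1 at or below 12.5. ESRP1, from the same list, was higher, at 14.2 to 48.7, and PGR had no value. A count per gene cannot show the base change behind S134A, so the NR3C1 level checks no label. The wt-GR vehicle libraries stood apart by their spread. Their highest value was a median of 1.23 times their lowest over the 29 members, against 1.09 to 1.15 times in the other groups, replicate 3 was the lowest of the group for 19 members, and replicate 1 had the fewest reads of all 12 libraries.

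The cells carried transcripts for a small set of receptors at high level. Levels of different genes were compared as normalized counts per kilobase of exon, averaged over the 12 libraries, since long genes collect more reads. Among the integrin α genes ITGA3, the α chain of a laminin receptor, led with 15501 per kilobase, followed by ITGA6, another laminin receptor chain, with 4461, ITGA2, a collagen receptor chain, with 3635, and ITGA5, the fibronectin receptor chain, with 3409.5. The order of ITGA2 and ITGA5 changed when the longest transcript was used as the length, as did those of ITGA10 and ITGA1 and of ITGA11 and ITGA2B, so these neighbours were not separated. ITGAV stood at 702 and ITGAE at 427 per kilobase, and the other integrin α genes were at or below 104.

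Among the integrin β genes ITGB1, the shared partner of most α chains, held 11004 normalized counts per kilobase. ITGB5, a partner of ITGAV, held 3640.3 and ITGB4, the partner of ITGA6 in hemidesmosomes, 1108 per kilobase. ITGB3 and ITGB2 were lower, with 173 and 97.1, and ITGB7, ITGB8 and ITGB6 followed with 18.5, 16.4 and 5.69. In wt-GR cells under vehicle ITGB2 was above ITGB3, and in the other 3 groups ITGB3 was above ITGB2.

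The laminin α and β genes each had 1 leading member. Per kilobase LAMA5 was the highest laminin α gene (1866) and LAMB3 the highest β gene (16275), and LAMC1, a γ chain gene, stood at 3558. LAMA3 and LAMB3 encode chains of the epithelial laminin that anchors hemidesmosomes, whereas LAMA5 joins LAMB1 or LAMB2 and LAMC1 in the widespread basement membrane laminins. As a share of the summed per-kilobase level of its class, a measure chosen after the values were seen, LAMA3 made up 8.93 ± 0.462% (SD, n = 3) of the laminin α chains in wt-GR cells under vehicle and 22.7 ± 0.307% in S134A-GR cells under vehicle. Under TGFβ1 its shares were 8.65 ± 0.211% and 24.8 ± 1.52%. These shares are a description with no test. The ranges of LAMA3 did not overlap between the lines. LAMB3 held 63.2 ± 1.30%, 65.7 ± 0.576%, 65.7 ± 0.387% and 71.7 ± 0.316% of the β chains in wt-GR vehicle, wt-GR TGFβ1, S134A-GR vehicle and S134A-GR TGFβ1 libraries. The shares depend on the length used. With the longest transcript LAMB3 held 53.6%, 54.9%, 56.5% and 62.3% in the same order of groups, and LAMA3 9.59%, 9.29%, 24.0% and 26.2% of the α chains.

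**Figure D1:**
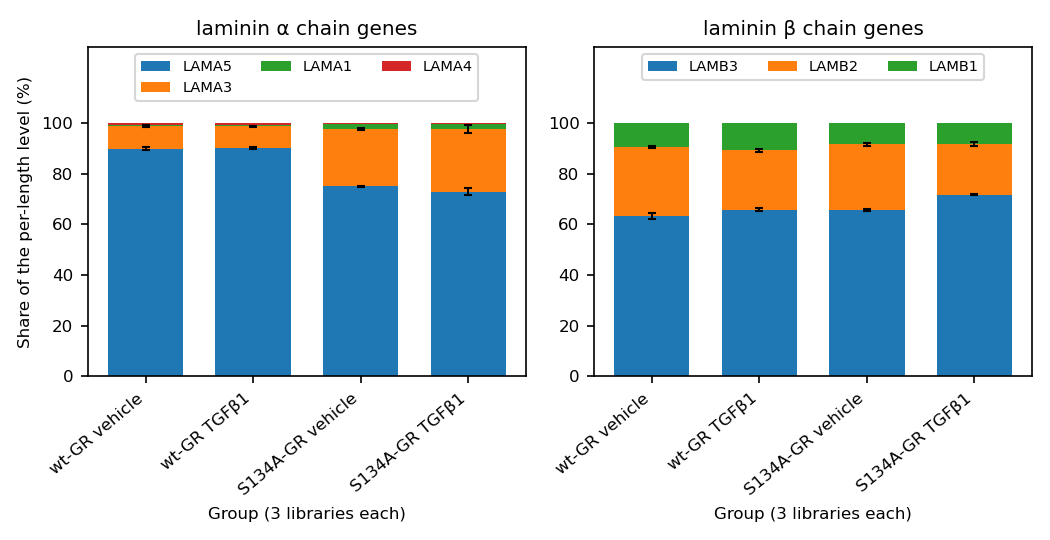
Share of each chain gene in the summed normalized counts per kilobase of the laminin α or β class, in percent, for the 4 groups; bars are means of 3 libraries, error bars are SDs at the borders between the larger shares, and genes under 0.5% in all groups are left out. LAMA3 makes up 8.93 ± 0.462% in wt-GR vehicle and 24.8 ± 1.52% in S134A-GR TGFβ1, and LAMB3 63.2 ± 1.30% and 71.7 ± 0.316%.

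The other 8 members were scarce, with a mean below 20 normalized counts, and get no fold change. They were ITGA4, ITGA8, ITGA9, ITGAD, ITGAL, ITGAM, LAMB4 and LAMC3. A level of 3 reads equals 4.89 normalized counts in the smallest library, a floor that covers counting error only. ITGA8 was the lowest, with values from 0 to 6.67, and LAMB4 the highest, with values from 6.32 to 29.5, above that floor in every library. The threshold of 20 fell between ITGA2B, with a mean of 24.5 over the libraries, and LAMB4, with 18.4. ITGA4 and ITGA9 are α chains of receptors on leukocytes and other migrating cells, and ITGAD, ITGAL and ITGAM are the leukocyte partners of ITGB2.

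The lines differed in most of these genes. Under vehicle, 22 of the 29 members passed an adjusted p of 0.05, with 10 above and 12 below the wt-GR level. By the same rule 51.5% of all 18579 genes tested passed (25% higher, 26.5% lower), and 61.8% of the 14425 genes with a mean of at least 20 (30% higher, 31.8% lower). A change of 1 or more on the log2 scale, up or down, was reached by 8 members, 3 higher and 5 lower, where 9.51% of all genes and 7.8% of the more abundant genes passed that rule. The median absolute log2 fold change was 0.56 over the members and 0.26 over genes with a mean of at least 20. The members were chosen with earlier results of these data known, so comparisons with other genes, here and below, are a description. Under TGFβ1, 23 members passed, 11 higher and 12 lower, and 10 of them reached the fold limit, 4 higher and 6 lower. There 48.8% of all genes (23.1% higher, 25.7% lower) and 58.7% of the abundant genes (28% higher, 30.7% lower) passed the first rule, and 8.46% and 6.82% the second. Tests used limma after adding a pseudocount of 1 to each value and taking log2, a scale that understates the change of genes with low counts, and p-values were adjusted over all genes tested. A log2 ratio below is the fitted log2 fold change with its standard error (SE).

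Most members were called in the same direction under both treatments. The share of all genes called so was not counted, and both contrasts compare the same clones. Only 0.414% of all genes passed for a difference of the TGFβ1 responses, so this agreement is not read as a trait of the members. Of the 29, 10 were higher in S134A-GR cells under both treatments, namely ITGA7, ITGA10, ITGB1, ITGB7, ITGB8, LAMA1, LAMA3, LAMB1, LAMB2 and LAMB3. By contrast, 11 were lower under both, namely ITGA1, ITGA3, ITGA11, ITGAV, ITGAX, ITGB2, ITGB3, ITGB4, ITGB5, LAMA4 and LAMA5. ITGA2, ITGA2B, ITGA5, ITGAE and ITGB6 passed under neither. Under vehicle 5 of the 9 laminin genes were higher and 3 lower, and 5 of the 20 integrin genes were higher and 9 lower. Over the 29 members the median signed log2 fold change was 0.0021 under vehicle and −0.043 under TGFβ1.

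**Figure D2:**
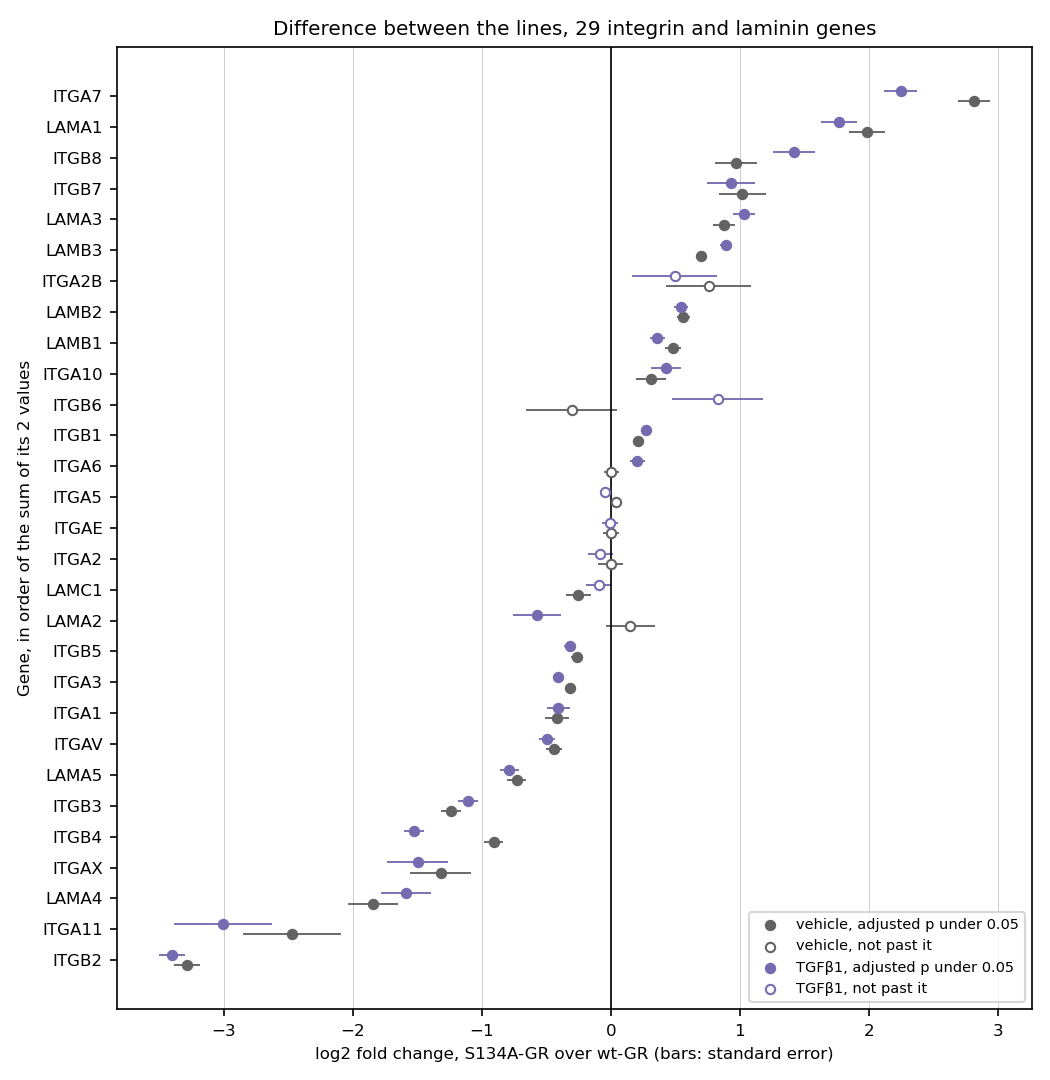
log2 fold change of S134A-GR over wt-GR for the 29 members, under vehicle (grey) and TGFβ1 (purple); points are limma estimates, bars are standard errors, and filled points passed an adjusted p of 0.05. The values run from −3.40 for ITGB2 to 2.82 for ITGA7, and the 2 treatments lie close to each other for most genes.

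ITGB2, the β chain of the leukocyte integrins, had the largest drop among the members. Its gene lies at chr21:44885953-44931989 on the minus strand of hg38. It had 1216, 1332 and 1423 normalized counts in the vehicle libraries of wt-GR cells, 1252, 1190.0 and 1337 in their TGFβ1 libraries, 132, 145 and 127 in the vehicle libraries of S134A-GR cells, and 133, 110.4 and 112 in their TGFβ1 libraries. Every S134A-GR library lay below every wt-GR library. The log2 fold change between the lines was −3.29 (SE 0.10, adjusted p = 1.99e-11) under vehicle and −3.40 (SE 0.10, adjusted p = 1.75e-11) under TGFβ1 by limma, which put S134A-GR cells at 0.103 and 0.0944 times the wt-GR level. The antisense gene ITGB2-AS1 shares 4.15% of its exon bases, and the strand setting of the count is not given in the sources used here.

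Of the α partners of ITGB2, ITGAX was the one with a fold change. It had 89.6, 115 and 116 normalized counts in the vehicle libraries of wt-GR cells, 104, 93.0 and 98.8 in their TGFβ1 libraries, 39.6, 49.7 and 37.4 in the vehicle libraries of S134A-GR cells, and 25.7, 49.6 and 31.5 in their TGFβ1 libraries. The libraries of the lines did not overlap, and ITGAX was lower, with a log2 ratio of −1.32 (SE 0.236, adjusted p = 0.000291) under vehicle and −1.50 (SE 0.236, adjusted p = 0.000108) under TGFβ1 by limma. ITGAD, ITGAL and ITGAM did not exceed 18.2 normalized counts in any library. Of the 4 leukocyte markers in the files, PTPRC reached 9.80 at most, SPI1 4.05 and CD14 37.5, while CD68, a lysosomal protein that other cells also make, was at 26579 to 42856. The summed level of these markers, nearly all of it CD68, was 27949 to 28259 in wt-GR cells and 40577 to 42867 in S134A-GR cells under vehicle. CD14, a monocyte marker, was at 30.4 ± 6.13 (SD, n = 3) in wt-GR and 4.62 ± 2.55 in S134A-GR cells under vehicle, the same direction as ITGB2 and ITGAX. The other leukocyte markers went the opposite way under vehicle, with CD68 at 28023 ± 174 in wt-GR and 41436 ± 1240 in S134A-GR cells. PTPRC was at 3.86 ± 4.25 and 7.18 ± 2.28 and SPI1 at 0 and 1.35 ± 2.34, both near the floor. The part of these markers in either difference was not tested.

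ITGB3, a partner of ITGAV that binds vitronectin and osteopontin, was lower in S134A-GR cells and moved strongly with TGFβ1. It had 1079, 997 and 949 normalized counts in the vehicle libraries of wt-GR cells, 2177, 2237 and 2348 in their TGFβ1 libraries, 404, 434 and 440.1 in the vehicle libraries of S134A-GR cells, and 1063, 1156 and 931 in their TGFβ1 libraries. No group overlapped another in the 4 comparisons between lines or treatments. The line difference was −1.24 (SE 0.0794, adjusted p = 1.77e-08) under vehicle and −1.11 (SE 0.0794, adjusted p = 5.83e-08) under TGFβ1 by limma. Under GENCODE 44, 33.2% of its exon bases are shared with another annotated gene on the same strand, so counts of both may be mixed.

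ITGB4, which pairs with ITGA6 and binds laminin in hemidesmosomes, was also lower. It lies at chr17:75721328-75757818 on the plus strand and had 10107, 9649 and 8851 normalized counts in the vehicle libraries of wt-GR cells, 11559, 11476 and 11110.3 in their TGFβ1 libraries, 4886, 5153 and 5193 in the vehicle libraries of S134A-GR cells, and 4093, 4414 and 3414 in their TGFβ1 libraries. The S134A-GR libraries were all below the wt-GR libraries, with a log2 ratio of −0.91 (SE 0.0745, adjusted p = 2.00e-07) under vehicle and −1.53 (SE 0.0745, adjusted p = 1.37e-09) under TGFβ1 by limma. ITGA6 itself was at 30519 ± 3002 (SD, n = 3) in wt-GR and 30472 ± 828 in S134A-GR cells under vehicle, with a 95% interval of the log2 difference of −0.12 to 0.13. Under TGFβ1 it was higher in S134A-GR cells, by 0.20 (SE 0.0585, adjusted p = 0.00999), and the difference between these 2 contrasts was not past the threshold (adjusted p = 0.478 by limma).

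ITGB8 and ITGB7 were the integrin β genes with the largest increases. ITGB8, a partner of ITGAV that binds latent TGFβ, had 297, 228 and 199 normalized counts in the vehicle libraries of wt-GR cells, 71.1, 93.7 and 67.2 in their TGFβ1 libraries, 456, 473 and 476 in the vehicle libraries of S134A-GR cells, and 238, 195 and 189.6 in their TGFβ1 libraries. The S134A-GR libraries lay above the wt-GR libraries under each treatment, by a log2 ratio of 0.97 (SE 0.163, adjusted p = 0.000171) under vehicle and 1.42 (SE 0.163, adjusted p = 5.87e-06) under TGFβ1 by limma. ITGB7, a lymphocyte homing receptor chain, had 58.7, 53.9 and 52.6 normalized counts in the vehicle libraries of wt-GR cells, 63.3, 49.8 and 50.9 in their TGFβ1 libraries, 129, 104 and 106 in the vehicle libraries of S134A-GR cells, and 86.5, 109 and 121 in their TGFβ1 libraries. Its line differences were 1.02 (SE 0.183, adjusted p = 0.000302) and 0.93 (SE 0.183, adjusted p = 0.000710) by limma, but 42.3% of its exon bases are shared with ZNF740 on the other strand, so its value is uncertain.

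ITGB1 and ITGB5 moved little by comparison. ITGB1 had 133853, 134510.0 and 127895 normalized counts in the vehicle libraries of wt-GR cells, 156810.0, 166731 and 159077 in their TGFβ1 libraries, 149131, 156529 and 154147 in the vehicle libraries of S134A-GR cells, and 205950.0, 191157 and 187024 in their TGFβ1 libraries. The lines did not overlap under either treatment, and S134A-GR cells were higher by a log2 ratio of 0.21 (SE 0.0422, adjusted p = 0.000636) and 0.27 (SE 0.0422, adjusted p = 8.64e-05) by limma. ITGB5, which binds vitronectin with ITGAV, was lower, at log2 ratios of −0.26 and −0.32 (adjusted p = 0.000263 and 5.61e-05 by limma). ITGB6, an epithelial partner of ITGAV, was at 13.3 to 52.2 normalized counts over the libraries and passed no test.

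ITGA7, the α chain of the muscle laminin receptor, had the largest increase. Its gene lies at chr12:55684568-55716404 on the minus strand, and it had 112, 86.7 and 115 normalized counts in the vehicle libraries of wt-GR cells, 108, 103 and 91.7 in their TGFβ1 libraries, 769, 659 and 792 in the vehicle libraries of S134A-GR cells, and 464, 478 and 503 in their TGFβ1 libraries. All S134A-GR libraries exceeded all wt-GR libraries, by a log2 ratio of 2.82 (SE 0.127, adjusted p = 6.25e-10) under vehicle and 2.25 (SE 0.127, adjusted p = 5.79e-09) under TGFβ1 by limma. That is 7.05 and 4.76 times the wt-GR level. METTL7B and BLOC1S1 are among the genes that share 1.82% of its exon bases.

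ITGA11, a collagen receptor chain known from fibroblasts, was the α gene with the largest drop. It had 55.4, 68.7 and 66.3 normalized counts in the vehicle libraries of wt-GR cells, 131, 115 and 65.2 in their TGFβ1 libraries, 12.3, 15.2 and 6.24 in the vehicle libraries of S134A-GR cells, and 6.66, 14.2 and 15.7 in their TGFβ1 libraries. The lines did not overlap, and the difference was −2.47 (SE 0.380, adjusted p = 7.88e-05) under vehicle and −3.01 (SE 0.380, adjusted p = 1.41e-05) under TGFβ1 by limma, at levels close to the floor in S134A-GR cells. With a pseudocount of 16 in place of 1 the values were −1.56 and −2.06, both still past the threshold. The fibroblast markers PDGFRA, DCN and LUM summed to 13.0 to 23.3 normalized counts in wt-GR and 3.77 to 8.91 in S134A-GR cells under vehicle, and DCN and LUM did not pass 4.44 in any library. Their part in the difference was not tested.

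ITGA10, ITGA1 and ITGA2 are the other collagen-binding α chains. ITGA10 had 715, 705 and 747 normalized counts in the vehicle libraries of wt-GR cells, 478, 350.0 and 432 in their TGFβ1 libraries, 903, 813 and 976 in the vehicle libraries of S134A-GR cells, and 495, 634 and 564 in their TGFβ1 libraries. It was higher in S134A-GR cells by a log2 ratio of 0.31 (SE 0.116, adjusted p = 0.0382) under vehicle and 0.43 (SE 0.116, adjusted p = 0.00683) under TGFβ1 by limma. The vehicle call was lost without wt-GR vehicle replicate 1 or 2 or S134A-GR vehicle replicate 1 or 3, with adjusted p from 0.0754 to 0.143 and log2 fold changes from 0.25 to 0.30. ITGA1 was lower, at log2 ratios of −0.42 and −0.41 (adjusted p = 0.00136 and 0.00174 by limma), with 13.2% of its exon bases shared with other genes, among them PELO. For ITGA2 the 95% interval of the log2 difference was −0.20 to 0.20 under vehicle and −0.28 to 0.12 under TGFβ1.

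ITGA3 and ITGAV were lower in S134A-GR cells by smaller margins. ITGA3 had 171192, 171346 and 161536 normalized counts in the vehicle libraries of wt-GR cells, 177490.0, 170975 and 173209 in their TGFβ1 libraries, 132466, 135291 and 136279 in the vehicle libraries of S134A-GR cells, and 132252, 133441 and 127804 in their TGFβ1 libraries. The lines did not overlap, with log2 ratios of −0.32 (SE 0.0349, adjusted p = 3.30e-06) and −0.41 (SE 0.0349, adjusted p = 3.26e-07) by limma. ITGAV, the α chain shared by the receptors of vitronectin and latent TGFβ, had 14104, 13127 and 11448 normalized counts in the vehicle libraries of wt-GR cells, 18230.2, 19204 and 18613 in their TGFβ1 libraries, 9128, 9639 and 9621 in the vehicle libraries of S134A-GR cells, and 13979, 12630.5 and 13089 in their TGFβ1 libraries. Its line differences were −0.44 (SE 0.0619, adjusted p = 3.45e-05) and −0.50 (SE 0.0619, adjusted p = 1.20e-05) by limma. Among the chains that pair with ITGAV, ITGB3 and ITGB5 were thus lower in S134A-GR cells as ITGAV was, and ITGB8 and ITGB1 were higher.

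ITGA5, ITGAE and ITGA2B did not pass the test between the lines under either treatment. ITGA5 was at 20987 ± 103 (SD, n = 3) in wt-GR and 21565 ± 288 in S134A-GR cells under vehicle, with a 95% interval of the log2 difference of −0.04 to 0.12, and although it missed the threshold its libraries did not overlap. For ITGAE, a partner of ITGB7 that binds E-cadherin, the interval was −0.13 to 0.14. ITGA2B, known from platelets, was at 21.6 ± 1.87 and 37.3 ± 1.09, a difference of 0.76 (SE 0.329, adjusted p = 0.0680) by limma that missed the threshold.

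**Figure D3:**
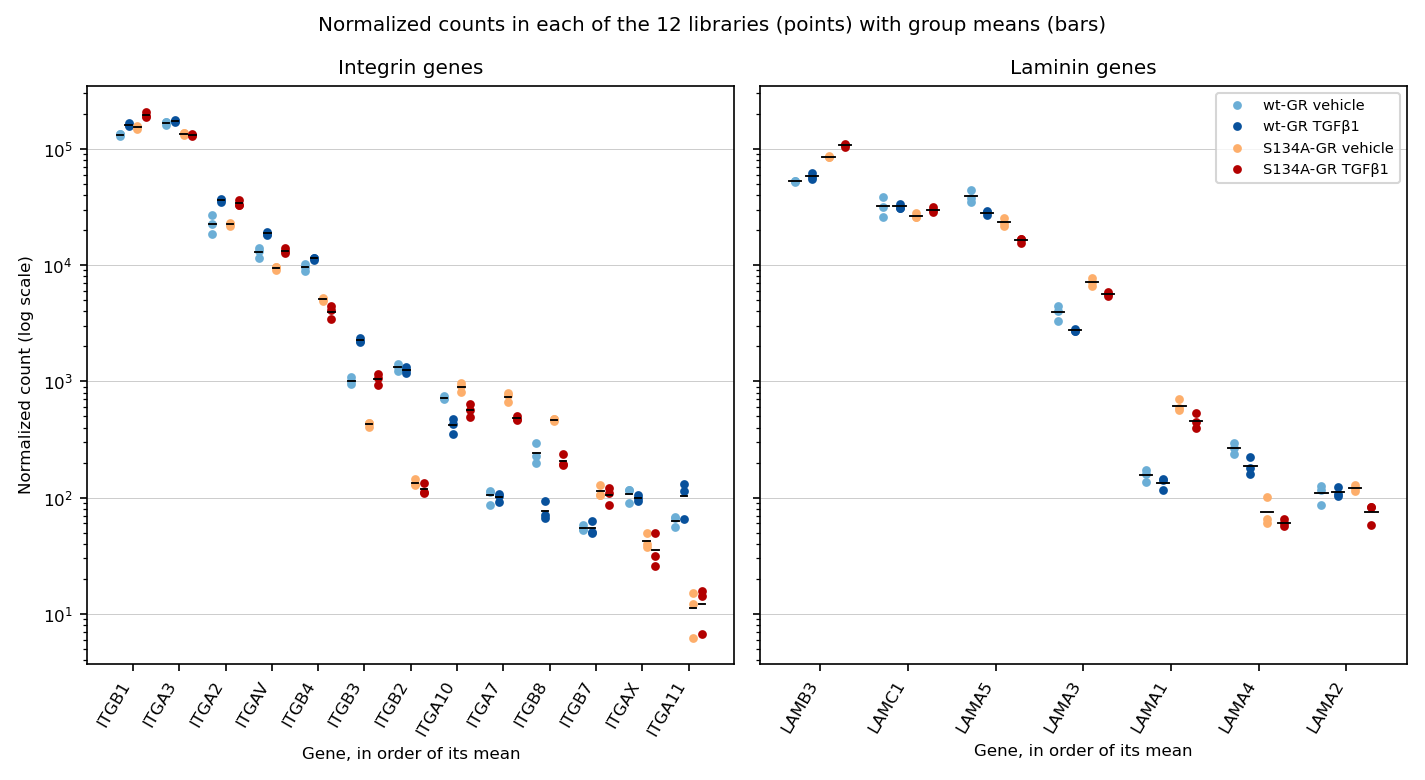
Normalized count (log axis) of 20 members in each of the 12 libraries, with points for libraries and short bars for the means of the 4 groups. ITGB2 lies at 1190 to 1423 in the wt-GR libraries and at 110 to 145 in the S134A-GR libraries, whereas ITGA7 lies at 86.7 to 115 and at 464 to 792.

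The laminin α genes moved in both directions. LAMA1, an embryonic laminin chain, had 158, 172 and 136 normalized counts in the vehicle libraries of wt-GR cells, 141, 116 and 145 in their TGFβ1 libraries, 590.0, 565 and 703 in the vehicle libraries of S134A-GR cells, and 399, 444 and 534 in their TGFβ1 libraries. All S134A-GR libraries were above all wt-GR libraries, by a log2 ratio of 1.99 (SE 0.141, adjusted p = 4.84e-08) under vehicle and 1.77 (SE 0.141, adjusted p = 1.62e-07) under TGFβ1 by limma, and 11.1% of its exon bases are shared with antisense genes. LAMA3, the α chain of the hemidesmosome laminin, had 4473, 3984 and 3318 normalized counts in the vehicle libraries of wt-GR cells, 2791, 2706 and 2712 in their TGFβ1 libraries, 7156, 6573 and 7765 in the vehicle libraries of S134A-GR cells, and 5839, 5375 and 5633 in their TGFβ1 libraries. It was higher by 0.88 (SE 0.0856, adjusted p = 1.10e-06) and 1.04 (SE 0.0856, adjusted p = 2.26e-07) by limma, again with no overlap between the lines.

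LAMA5 and LAMA4 were lower. LAMA5 had 43868, 37649 and 35123 normalized counts in the vehicle libraries of wt-GR cells, 29044, 26924 and 28390.4 in their TGFβ1 libraries, 22946, 21745 and 25473 in the vehicle libraries of S134A-GR cells, and 15519, 16760.4 and 16617 in their TGFβ1 libraries. The log2 fold changes were −0.73 (SE 0.0724, adjusted p = 1.25e-06) under vehicle and −0.79 (SE 0.0724, adjusted p = 6.63e-07) under TGFβ1 by limma, with no overlap of the lines. LAMA4, a chain of vascular and mesenchymal laminins, had 267, 296 and 239 normalized counts in the vehicle libraries of wt-GR cells, 179, 222 and 159.9 in their TGFβ1 libraries, 65.0, 100.4 and 60.6 in the vehicle libraries of S134A-GR cells, and 65.6, 56.7 and 60.8 in their TGFβ1 libraries. It was lower, at −1.85 (SE 0.195, adjusted p = 2.29e-06) and −1.59 (SE 0.195, adjusted p = 1.06e-05) by limma. The 5 endothelial markers summed to 1969 to 2126 normalized counts in wt-GR and 1568 to 1659 in S134A-GR cells under vehicle, and CDH5 among them was at 187 ± 31.1 and 19.0 ± 7.61 (SD, n = 3). PECAM1 was at 1358.5 ± 83.8 and 1141 ± 54.0 and VWF at 396 ± 30.2 and 364 ± 13.3, smaller drops. KDR, at 76.2 ± 22.0 and 84.0 ± 20.9, and TEK, at 15.3 ± 5.22 and 16.2 ± 4.72, went the other way within their spread. Their part in the LAMA4 difference was not tested.

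LAMA2, the muscle laminin chain, had 86.4, 127 and 117 normalized counts in the vehicle libraries of wt-GR cells, 122, 104 and 107 in their TGFβ1 libraries, 113, 128 and 122 in the vehicle libraries of S134A-GR cells, and 83.7, 83.0 and 58.7 in their TGFβ1 libraries. Its line difference was 0.15 (SE 0.187, adjusted p = 0.529) under vehicle and −0.57 (SE 0.187, adjusted p = 0.0206) under TGFβ1 by limma, and the difference between these contrasts missed the threshold (adjusted p = 0.404). The TGFβ1 call was lost without S134A-GR TGFβ1 replicate 3 (log2 fold change −0.41, adjusted p = 0.0994 by limma) or wt-GR TGFβ1 replicate 1 (−0.50, adjusted p = 0.0743).

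All 3 laminin β genes with a fold change were higher in S134A-GR cells. LAMB3, the β chain that pairs with LAMA3, had 52716, 51974 and 52635 normalized counts in the vehicle libraries of wt-GR cells, 56941, 55058 and 61443 in their TGFβ1 libraries, 84293, 84833 and 86508 in the vehicle libraries of S134A-GR cells, and 102962, 109530.0 and 108684 in their TGFβ1 libraries. The lines were far apart relative to the spread, with log2 ratios of 0.70 (SE 0.040, adjusted p = 5.68e-09) under vehicle and 0.89 (SE 0.040, adjusted p = 6.39e-10) under TGFβ1 by limma. LAMB2 was higher by 0.56 and 0.54 (adjusted p = 8.84e-07 and 1.45e-06) and LAMB1 by 0.48 and 0.36 (adjusted p = 8.98e-06 and 0.000145 by limma).

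LAMC1, the γ chain of many laminins, had 38090.4, 31653 and 26048 normalized counts in the vehicle libraries of wt-GR cells, 31230.1, 33471 and 30973 in their TGFβ1 libraries, 25749, 25752 and 28056 in the vehicle libraries of S134A-GR cells, and 31265, 28836 and 29481 in their TGFβ1 libraries. Its libraries overlapped between the lines, and the vehicle difference of −0.25 (SE 0.0957, adjusted p = 0.0401) by limma was close to the threshold. It lost the call without any of 7 libraries, each of the wt-GR vehicle replicates 1 and 2, wt-GR TGFβ1 replicates 1 and 3, S134A-GR vehicle replicates 1 and 2 and S134A-GR TGFβ1 replicate 3, with adjusted p from 0.0501 to 0.191, and with the compared groups alone (0.134). Without wt-GR vehicle replicate 1 the log2 fold change was −0.12.

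LAMA3 and LAMB3, chains of the same laminin, were thus both higher in S134A-GR cells under both treatments, while TGFβ1 moved them in opposite directions. The windows of 250 bases upstream of a start in LAMA3 and in LAMB3 that hold a match to TGANTCA, the AP-1 motif, are given for that reason, from RefSeq on GRCh38.p14. The LAMA3 window is at chr18:23872770-23873019 on the plus strand, before an internal start of the gene, and the LAMB3 window at chr1:209651375-209651624 on the minus strand, before the most downstream of the 3 starts the table gives. Capitals mark TGANTCA, whose matches begin 125 and 69 bases before the start in LAMA3 and 67 bases before it in LAMB3, and CAGACA, a SMAD motif, 87 bases before the LAMA3 start.
LAMA3: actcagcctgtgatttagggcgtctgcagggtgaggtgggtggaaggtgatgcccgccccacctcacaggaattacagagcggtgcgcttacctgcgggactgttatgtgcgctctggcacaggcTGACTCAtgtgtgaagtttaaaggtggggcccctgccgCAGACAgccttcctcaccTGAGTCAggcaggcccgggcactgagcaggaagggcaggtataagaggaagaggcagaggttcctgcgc
LAMB3: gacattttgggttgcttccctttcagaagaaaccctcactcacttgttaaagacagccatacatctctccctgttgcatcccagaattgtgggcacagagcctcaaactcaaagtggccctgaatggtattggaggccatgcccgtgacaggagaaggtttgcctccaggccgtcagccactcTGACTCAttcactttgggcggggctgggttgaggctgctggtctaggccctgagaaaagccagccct
Both strands were searched, and a match is a description of the letters, not a bound site. TGANTCA was found in 6.57% of all 35116 windows and in 2 of the 29 windows of members with a fold change, which are these. CAGACA was found in 13.6% of all windows and in 3 of the 29, those of LAMA3, LAMA4 and ITGA5. AGAACA, the hexamer of glucocorticoid response elements, was found in 12.4% of all windows and in 4 of the 29, those of ITGA10, ITGA6, ITGB6 and LAMB3. The LAMB3 match was in another of its windows, at chr1:209652330-209652579, and not in the window printed above. As shares of the members' windows these are 6.9%, 10.3% and 13.8%. Of the 37 members 26 had a window, 33 windows in all.

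TGFβ1 changed about as many of these genes in each line. In wt-GR cells 13 of the 29 members passed an adjusted p of 0.05, 9 higher and 4 lower, where 21% of all genes tested (11.2% higher, 9.82% lower) and 26.1% of those with a mean of at least 20 (14% higher, 12.1% lower) passed. In S134A-GR cells 15 members passed, 7 higher and 8 lower, where 18.7% (10% higher, 8.69% lower) and 23.5% (12.7% higher, 10.8% lower) passed. The log2 limit of 1 was reached by ITGB3 and ITGB8 in each line, against 2.29% and 1.66% of all genes and 1.93% and 1.55% of the abundant genes. The treatment and line comparisons share their libraries, so the counts of one are not independent of the other.

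In both lines 7 members rose, ITGA2, ITGA5, ITGAV, ITGB1, ITGB3, ITGB5 and LAMB3. In both lines 4 fell, ITGA10, ITGB8, LAMA3 and LAMA5. LAMB1 passed in wt-GR cells and ITGA7, LAMA1 and LAMA2 passed in S134A-GR cells, none of them with a difference between the lines past the threshold. ITGB4 passed in opposite directions. The other 13 members passed in neither line. The share of all genes called in both lines or in neither was not counted, so these counts describe the members only.

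**Figure D4:**
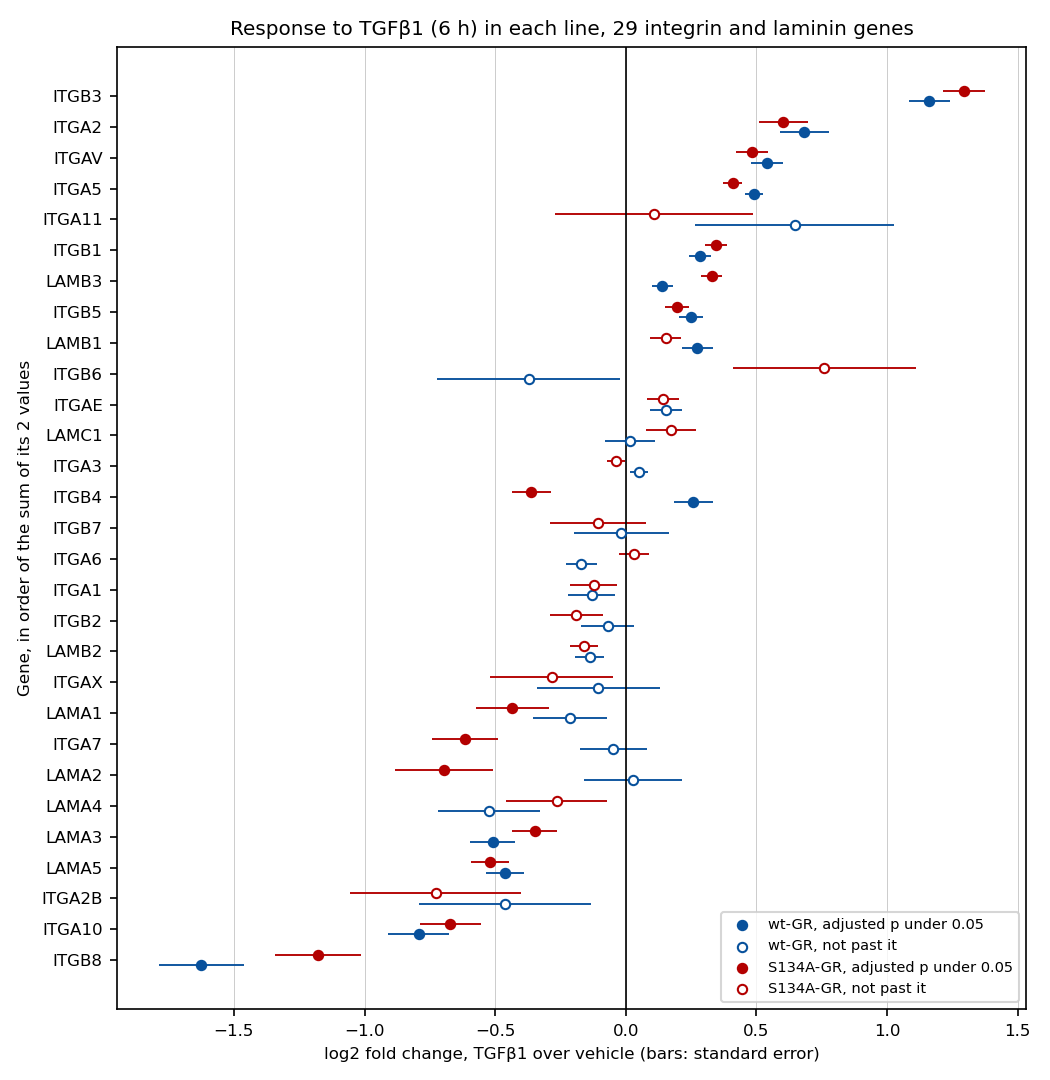
log2 fold change of TGFβ1 over vehicle after 6 h for the 29 members, in wt-GR (blue) and S134A-GR cells (red); points are limma estimates, bars are standard errors, and filled points passed an adjusted p of 0.05. ITGB3 lies highest in both lines (1.16 and 1.29) and ITGB8 lowest (−1.62 and −1.18), and ITGB4 is filled on both sides of 0.

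The members that rose in both lines included ITGB3, ITGAV, ITGA5, ITGB1 and ITGB5. ITGB3, with the values above, rose by a log2 ratio of 1.16 (SE 0.0794, adjusted p = 1.06e-07) in wt-GR and 1.29 (SE 0.0794, adjusted p = 4.22e-08) in S134A-GR cells by limma, which is 2.24 and 2.45 times vehicle. S134A-GR cells under TGFβ1 (1050.3 ± 113, SD, n = 3) were near wt-GR cells under vehicle (1008 ± 65.7). ITGAV rose by 0.54 and 0.48 (adjusted p = 1.93e-05 and 6.80e-05 by limma) and ITGA5 by 0.49 and 0.41 (adjusted p = 1.96e-07 and 1.55e-06). ITGB1 rose by 0.28 and 0.34, and ITGB5 by 0.25 and 0.19.

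ITGA2, the collagen receptor chain, had 26880.1, 22585 and 18387 normalized counts in the vehicle libraries of wt-GR cells, 34969.5, 36764 and 35940.2 in their TGFβ1 libraries, 21750.5, 22405 and 22836 in the vehicle libraries of S134A-GR cells, and 36369, 32990.2 and 32519 in their TGFβ1 libraries. The TGFβ1 libraries were above the vehicle libraries in each line, by a log2 ratio of 0.68 (SE 0.0946, adjusted p = 0.000119) and 0.60 (SE 0.0946, adjusted p = 0.000401) by limma. The wt-GR vehicle libraries spread over 18387 to 26880, wider than those of any other group for this gene.

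ITGB8 had the largest fall, from 241 ± 50.1 to 77.3 ± 14.3 (SD, n = 3) in wt-GR and from 468 ± 10.7 to 208 ± 26.3 in S134A-GR cells. The log2 fold changes were −1.62 (SE 0.163, adjusted p = 5.44e-06) and −1.18 (SE 0.163, adjusted p = 0.000140) by limma, and treated and untreated libraries did not overlap. ITGB3 and ITGB8, both partners of ITGAV, therefore moved in opposite directions in each line. ITGA10 fell, with log2 ratios of −0.79 (SE 0.116, adjusted p = 0.000192) and −0.67 (SE 0.116, adjusted p = 0.000906) by limma, while ITGA11 had 0.65 and 0.11 and passed in neither line. ITGA7 had −0.05 (SE 0.127, adjusted p = 0.847) in wt-GR cells and −0.61 (SE 0.127, adjusted p = 0.00348) in S134A-GR cells by limma, and the difference between them missed the threshold (adjusted p = 0.323).

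Among the laminins, LAMB3 rose by 0.14 (SE 0.040, adjusted p = 0.0233) and 0.33 (SE 0.040, adjusted p = 4.19e-05) by limma. The wt-GR call of LAMB3 was lost without wt-GR TGFβ1 replicate 3 (log2 fold change 0.09, adjusted p = 0.109 by limma) or wt-GR vehicle replicate 2 (0.13, adjusted p = 0.0804), and with the compared groups alone (adjusted p = 0.0809). LAMA3 fell, at −0.51 (SE 0.0856, adjusted p = 0.000622) and −0.35 (SE 0.0856, adjusted p = 0.0106) by limma, and its S134A-GR call was lost without S134A-GR vehicle replicate 3 (−0.29, adjusted p = 0.0570). LAMA5 fell, at −0.46 (SE 0.0724, adjusted p = 0.000349) and −0.52 (SE 0.0724, adjusted p = 0.000147) by limma.

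LAMA1 and LAMA2 passed in S134A-GR cells, and LAMA4 in neither line. LAMA1 changed by a log2 ratio of −0.43 (SE 0.141, adjusted p = 0.0464) by limma, close to the threshold. Leaving out S134A-GR vehicle replicate 1, 2 or 3, S134A-GR TGFβ1 replicate 1 or 2, wt-GR TGFβ1 replicate 1 or 3 or wt-GR vehicle replicate 2 ended that call, with adjusted p from 0.0502 to 0.188, as did fitting genes with at least 1 read (0.0528) or the compared groups alone (0.0915). LAMA2 changed by −0.70 (SE 0.187, adjusted p = 0.0180) by limma, which was lost without S134A-GR TGFβ1 replicate 3 or S134A-GR vehicle replicate 2 or 3, with adjusted p from 0.0552 to 0.0753, or with the compared groups alone (0.0511). LAMA4 had −0.52 (SE 0.195, adjusted p = 0.0746) in wt-GR cells, where its libraries did not overlap between treatments, and −0.26 (SE 0.195, adjusted p = 0.407) in S134A-GR cells by limma. LAMC1 had 0.01 and 0.17 and passed in neither line.

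Subtracting the wt-GR response to TGFβ1 from the S134A-GR response asked which genes respond differently between the lines. This contrast cannot separate the change of Ser134 from other differences between the clones. Of the 29 members ITGB4 alone passed in limma, and 6 had an unadjusted p under 0.05. Of all 18579 genes, 77 passed, which is 0.414%, or 0.527% of those with a mean of at least 20. The share that was lower was 0.248% and 0.319%, the share that was higher 0.167% and 0.208%, and 0.0592% and 0.0693% also passed the log2 limit of 1. Leaving out 1 library moved the count of 77 to between 22, without wt-GR TGFβ1 replicate 1, and 166, without wt-GR vehicle replicate 3. Without any 1 of the other wt-GR TGFβ1 replicates, wt-GR vehicle replicate 2, the S134A-GR vehicle replicates, or S134A-GR TGFβ1 replicate 2 or 3 it was 27 to 51. Of all genes, 1728 had an unadjusted p under 0.05. ITGB4 rose by a log2 ratio of 0.26 (SE 0.0745, adjusted p = 0.0243) in wt-GR cells and fell, with a log2 ratio of −0.36 (SE 0.0745, adjusted p = 0.00339), in S134A-GR cells by limma. All 3 treated libraries were above all 3 untreated libraries in wt-GR cells and below them in S134A-GR cells. The difference was −0.62 (SE 0.105, adjusted p = 0.0211) with a 95% interval of −0.84 to −0.39. Leaving out wt-GR vehicle replicate 2, any wt-GR TGFβ1 replicate, or S134A-GR vehicle replicate 2 or 3 ended this call, with adjusted p from 0.0592 to 0.0738 and values from −0.64 to −0.60. The wt-GR rise was lost without wt-GR vehicle replicate 2 or 3 or wt-GR TGFβ1 replicate 1 or 2, with adjusted p from 0.0588 to 0.0792. The S134A-GR fall was lost when the compared groups alone were fitted (adjusted p = 0.0586 by limma).

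For the other 28 members the intervals of the difference show what these libraries could resolve. Among abundant genes the 95% interval was −0.19 to 0.02 on the log2 scale for ITGA3, −0.07 to 0.19 for ITGB1, −0.19 to 0.03 for ITGA5 and −0.25 to 0.13 for ITGAV. For LAMB3 it was 0.07 to 0.31 (adjusted p = 0.282 by limma) and for ITGA6 0.02 to 0.38 (adjusted p = 0.478). For ITGA7 it was −0.95 to −0.18 (adjusted p = 0.323) and for LAMA2 −1.29 to −0.16 (adjusted p = 0.404). These intervals excluded equal responses, but none passed the threshold. Among scarce genes the interval was wide, as for ITGB6 (0.06 to 2.20) and ITGA11 (−1.69 to 0.62). For the members not named here the interval included equal responses.

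The genes that work with these receptors and matrix chains were counted from 3 lists. Of the 23 activators and adaptors of integrins with a fold change, 7 stood higher in S134A-GR cells and 10 stood lower, both under vehicle, where 30% and 31.8% of all genes with a mean of at least 20 did. FERMT3, the kindlin of blood cells, was lower, with a log2 ratio of −2.15 (SE 0.106, adjusted p = 1.38e-09), and SRC was higher by 0.71 (SE 0.0355, adjusted p = 1.65e-09) by limma. Of the 17 other laminin receptors and basement membrane partners, 2 were higher and 9 lower against the same shares, with COL4A1 at −1.11 and COL4A2 at −0.84, the chains of type IV collagen, and PLEC, the plectin that binds ITGB4, at 0.88. Of 16 other ligands and co-receptors, 6 were higher and 7 lower. SPP1, which encodes osteopontin, a ligand of ITGAV with ITGB3, had the largest value, 4.04 (SE 0.126, adjusted p = 2.37e-11), and ICAM1, a ligand of the ITGB2 receptors, the lowest, −3.83 (SE 0.152, adjusted p = 1.79e-10), followed by FN1, fibronectin, at −2.10.

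The same lists were counted for TGFβ1, where 14% of the genes with a mean of at least 20 rose and 12.1% fell in wt-GR cells, and 12.7% rose and 10.8% fell in S134A-GR cells. Differences between lists or comparisons were not tested. Of the activators and adaptors, 11 rose and 1 fell in wt-GR cells and 10 rose and 1 fell in S134A-GR cells, led by FERMT1, an epithelial kindlin, at 0.77 and 0.88. Of the basement membrane list, 4 rose and 5 fell in wt-GR cells and 4 rose and 4 fell in S134A-GR cells, led by COL4A1 at 1.99 and 1.95. Of the other ligands, 7 rose and 3 fell in wt-GR cells and 7 rose and 1 fell in S134A-GR cells. COL1A1, a chain of type I collagen bound by ITGA2, ITGA10 and ITGA11, led these at 2.97 and 1.80, and its response differed between the lines by −1.17 (SE 0.140, adjusted p = 0.00265) by limma. SRC, SDC1 and TGFB1 were the other partners whose responses differed, by −0.31, −0.24 and −0.48. By list, 1 of 23, 1 of 17 and 2 of 16 genes passed for this difference, where 0.527% of genes with a mean of at least 20 did. Over all genes the calls of this difference ranged from 22 to 166 without 1 library.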

How the data were processed

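The authors made 12 mRNA libraries from total RNA of MDA-MB-231 cells, 3 for each line and treatment, and sequenced them. Groups were taken from the labels. According to the submitters' processing notes the authors checked reads with FastQC 0.11.7, trimmed them with Trimmomatic, aligned them with HISAT2 to hg38, counted them with featureCounts and used DESeq2 1.22.2. The deposited signal values are normalized counts per gene, that is, the authors' counts divided by a size factor for each library. The annotation and strand setting of the count are not given in the sources used here. Columns of the authors' own comparisons were not used.

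The values were whole multiples of a step per library in 100% of cases (tolerance 0.01 read), which gave back 56362036 to 129832227 reads per library. The floors (3 reads) cover counting error only. The intervals of the log2 differences were built from the limma standard errors, so they reflect the spread between these libraries. Genes with at least 10 recovered reads in all (18579) were fitted with limma 3.58.1 in R 4.3.3 on log2(normalized count + 1), with the 4 groups in one model and Benjamini-Hochberg adjustment over all genes. The threshold was an adjusted p of 0.05. Between 3 and 3 libraries an exact permutation test cannot go below p = 0.1, so none was used. On the recovered reads, edgeR 4.0.16 (quasi-likelihood, TMM) called 9452, 9106, 3892, 3450 and 78 genes for the line under vehicle, the line under TGFβ1, TGFβ1 in wt-GR, TGFβ1 in S134A-GR cells and the difference of the responses, and DESeq2 1.42.0 called 9406, 9146, 4276, 4045 and 211. Other alternatives were another pseudocount, no filter, TMM scaling, the compared groups alone, a replicate block and each library left out. The fits were tested on simulated data.

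Lengths, positions and overlaps came from GENCODE 44. Promoter windows came from RefSeq (GRCh38.p14), where 26 of the 37 members matched by symbol. The windows of ITGA3, ITGA7, ITGA9, ITGAD, ITGAL, ITGAX, ITGB2, ITGB3, ITGB4, LAMA1 and LAMC3 were not used here. Of the genes the naming rule takes, 1 is not reported here. The members and all gene lists were chosen with earlier results of these data known. Values in every library were given for called members that moved by 1 or more on the log2 scale in any comparison or by 0.5 or more under TGFβ1, for those called in the difference of the responses, and for the most abundant gene per length of each class. Partner genes were named from at most the 4 largest called changes of a list in a comparison.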

Additional observations from a re-analysis of the deposited data

Results flagged for a closer look

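The response of ITGB4 to TGFβ1 differed between the lines in a direct test of that difference, with a log2 value of −0.62 (S134A-GR response minus wt-GR response, limma, adjusted p = 0.0211). All treated wt-GR libraries lay above, and all treated S134A-GR libraries below, their vehicle libraries. With 3 libraries in each group no single library was tested as an outlying value.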

How the results depend on the processing

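Of 29 members, 22, 23, 13, 15 and 1 passed for the line under vehicle, the line under TGFβ1, TGFβ1 in wt-GR cells, TGFβ1 in S134A-GR cells and the difference of the responses. Other pseudocounts, filters, scalings, count tests and fits gave 22 to 23, 23 to 24, 12 to 15, 11 to 17 and 1. Leaving out 1 library gave 20 to 23, 22 to 24, 11 to 16, 12 to 17, and 0 to 1. The count of 0 arose without wt-GR vehicle replicate 2, any wt-GR TGFβ1 replicate, or S134A-GR vehicle replicate 2 or 3. Of the called values of the members described in full, 592 of 599 under other settings and 683 of 720 without a library kept direction and side of the threshold, and none reversed. The calls lost under other settings were LAMA1 under TGFβ1 in S134A-GR cells (limma adjusted p = 0.0528 without the filter, 0.0590 with the block and 0.0915 with the compared groups alone) and, with the compared groups alone, LAMC1 between the lines under vehicle (0.134), LAMB3 under TGFβ1 in wt-GR cells (0.0809), and LAMA2 (0.0511) and ITGB4 (0.0586) under TGFβ1 in S134A-GR cells; the cause was not tested. The fit with the compared groups alone could not be made for the difference of the responses. Over all genes that difference was called for 77 genes by limma, 211 by DESeq2, and 22 to 166 by limma without 1 library.

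Libraries share replicate numbers across groups, but same-numbered libraries did not deviate together (mean correlation of deviations 0.0144, from −0.0546 to 0.135, over 14425 genes). With a replicate block 22, 23, 14, 14 and 1 members passed. Depth limits the 8 scarce members, which were at or below 29.5 normalized counts in every library.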
